A study of Mus musculus with 446 samples.

Results

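Interferon-stimulated genes were followed across 3 tissues of male Diversity Outbred mice, which are bred so that every animal is genetically distinct. The genes were 39 symbols listed by name for their role in the interferon response. All 39 were among the 47643 genes of the liver table and the 47643 of the muscle table, and 6 (Irf9, Ifi35, Mx1, Rsad2, Cmpk2 and Dhx58) were among the 2728 complete genes of the abdominal adipose table. The high-fat mice ate a diet with 60 kcal% fat for 14 weeks, and the control mice stayed on one with 10 kcal% fat, which all of them had eaten before the start. Males were housed singly from 6 weeks of age, and the labels name no allele or agent beside the diet. After leaving out the liver and muscle of mouse 80, the comparisons held 74 high-fat and 74 control livers, 74 high-fat and 74 control muscles, and 75 high-fat and 73 control adipose samples, 1 library per mouse and tissue.

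Interferons are secreted when cells sense foreign or misplaced nucleic acid. Type I interferons bind a receptor made of Ifnar1 and Ifnar2, whose kinases activate signal carriers such as Stat2; with Irf9 it takes part in a complex that binds the interferon-stimulated response element (ISRE) in promoters. Interferon gamma acts on the gamma-activated sequence (GAS). In liver, hepatocytes and Kupffer cells, the resident macrophages, are both known to respond.

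Promoters were searched for the letters of both elements. RefSeq promoter sequence of GRCm38.p6 was found for 29 of the 39 genes. In the 250 bases before the gene start, the ISRE core (GAAA, any 2 bases, then GAAA), searched on both strands, was present in 15 of the 29 (51.7%), against 936 of 27025 genes with such a promoter (3.46%). The GAS letters TTCNNNGAA were present in 6 of the 29 (20.7%), against 8.13% of all genes. A match says only that the letters are there. Of the 9 genes lower in high-fat livers (below), 7 had such a promoter; the ISRE letters were in 3 of them (Oas1a, Bst2 and Gbp3) and not in the windows of the other 4 (Irf7, Cmpk2, Ifih1 and Xaf1). Windows with a match are shown for these 3, for Gbp7, which was lower in muscle, and for 3 genes of the IFIT family, which did not pass a diet test, each 5′ to 3′ on the strand of its gene, with the ISRE letters in capitals (where the strand of the gene reads TTTC, the element lies on the other strand).
Bst2 (minus strand): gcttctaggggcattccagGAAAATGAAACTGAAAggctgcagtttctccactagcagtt
Oas1a (minus strand): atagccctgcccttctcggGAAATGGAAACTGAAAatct
Gbp3 (plus strand): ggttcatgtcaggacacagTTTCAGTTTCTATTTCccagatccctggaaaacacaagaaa
Gbp7 (plus strand): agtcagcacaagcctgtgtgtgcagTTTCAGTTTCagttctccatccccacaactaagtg
Ifit1 (plus strand): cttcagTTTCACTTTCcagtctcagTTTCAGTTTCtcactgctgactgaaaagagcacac
Ifit3 (plus strand): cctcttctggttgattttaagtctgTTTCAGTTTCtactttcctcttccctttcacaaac
Ifit3b (plus strand): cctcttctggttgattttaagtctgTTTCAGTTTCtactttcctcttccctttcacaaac
In Bst2, at chr8:71537562-71537621, and in Oas1a, at chr5:120907526-120907564, overlapping matches make a run of 16 bases. Gbp3, at chr3:142559980-142560039, has such a run on the opposite strand, and Gbp7, at chr3:142530258-142530317, a single match. Ifit1, at chr19:34640779-34640838, has 2 matches in its window. The windows of Ifit3, at chr19:34583382-34583441, and of its near-copy Ifit3b, at chr19:34607778-34607837, are identical; reads of such copies can be shared, so the levels of these 2 genes are uncertain.

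Levels are in TPM (transcripts per 1000000), rescaled between libraries of a tissue. In 26 livers, 11 muscles and 18 adipose samples the scale factor was more than 3-fold below the tissue's median, with few coding transcripts. These were 12 high-fat and 14 control livers, 9 high-fat and 2 control muscles, and 7 high-fat and 11 control adipose samples. Per-mouse levels of the interferon-stimulated genes below come from the other libraries. They comprised 62 high-fat and 60 control livers, 65 high-fat and 72 control muscles, and 68 high-fat and 62 control adipose samples. The tests, and the levels of markers and other listed genes, used all libraries unless stated. The tissue labels matched their markers: summed hepatocyte markers had medians of 41128 scaled TPM in high-fat livers and 45123 in control livers. Summed skeletal muscle markers had medians of 101911 in high-fat muscles and 115791 in control muscles. A few libraries also held markers of the other tissue: summed skeletal muscle markers were above 1000 scaled TPM in 1 high-fat liver (5608) and 2 control livers (3037 and 2988), against a median of 1.52 in high-fat and 1.53 in control livers. Summed hepatocyte markers were above 1000 in 2 high-fat muscles (5765 and 2963) and 1 control muscle (1681), against medians of 27.5 in high-fat and 48.9 in control muscles. In all but 8 mice the liver was most like the muscle of the same number over the genes used for that check. The livers of these 8 unmatched mice, control mouse 45 among them, were kept as labelled. Most of the 8 were also low-scale libraries, but the liver of mouse 45 was not.

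In high-fat livers, 9 of the 36 tested interferon-stimulated genes were lower than in control livers, against 5.37% of all 12415 tested genes lower, and 0 were higher, against 4.56% of all genes higher (limma, Benjamini-Hochberg adjusted p under 0.05 over all genes). The 9 were Irf7, Oas1a, Bst2, Rtp4, Cmpk2, Ifih1, Gbp3, Parp14 and Xaf1. Each difference is the high-fat mean minus the control mean of log2(scaled TPM + 1), a measure that understates the change of low genes. On that scale 30 of the 36 were below 0, with a median of -0.14 against -0.00574 over all tested genes. In 0 of the 36 did the spread between mice pass a test of difference between diets, a limma test of absolute deviations. That test called 0.0161% of all genes in each direction. Its unadjusted p was under 0.05 for 1 of the 36 and for 388 of all 12415 genes.

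Irf7 (ENSMUSG00000025498), the transcription factor that amplifies type I interferon production, ranged between 0.804 and 17.1 scaled TPM in high-fat livers, with a median of 6.12, against 2.50 to 51.5 with a median of 9.32 in control livers. The ranges overlapped widely, but 17 of 62 high-fat livers were above the control median. Its difference was -0.55 ± 0.15 (SE; limma adjusted p = 0.00667). The partners of the ISRE-binding complex did not pass. Irf9 had medians of 10.2 scaled TPM in high-fat livers and 10.1 in control livers, with a difference of -0.04 ± 0.07. Stat2 had medians of 10.1 in high-fat livers and 10.6 in control livers (-0.07 ± 0.07).

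The antiviral effectors supplied 3 of the lowered genes. Bst2 (ENSMUSG00000046718), or tetherin, holds budding virions at the cell surface, and its levels ranged between 32.5 and 99.3 scaled TPM in high-fat livers (median 55.7), against 35.5 to 184 in control livers (median 78.2). Of 62 high-fat livers 11 were above the control median. The difference was -0.38 ± 0.08 (limma adjusted p = 9.46e-05), the smallest p of all the members in liver. Cmpk2 (ENSMUSG00000020638), a mitochondrial nucleotide kinase next to Rsad2 on chromosome 12, had a median of 0.926 in high-fat livers (0.0953 to 2.59), against 1.27 in control livers (0.11 to 7.47), and differed by -0.39 ± 0.09 (limma adjusted p = 0.000568). Its neighbour Rsad2, which encodes viperin and makes a chain-terminating nucleotide, had medians of 1.57 in high-fat livers and 1.67 in control livers, and did not pass.

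Rtp4 (ENSMUSG00000033355), an interferon-induced receptor transporter protein, fell by 0.31 ± 0.11 on the log2 scale (limma adjusted p = 0.0465), a call lost without the low-scale libraries (-0.26, adjusted p = 0.0689). Medians were 3.31 scaled TPM in high-fat livers and 4.20 in control livers. The dynamin-like GTPase Mx2 showed a far wider spread than a diet difference: 0.708 to 45.3 in high-fat livers (median 4.04), against 0.915 to 38.2 in control livers (median 4.72). Its difference of 0.02 ± 0.18 was reversed in sign with another pseudocount. Mx1, whose protein blocks orthomyxoviruses, was too low in liver to be tested, with medians of 0.465 in high-fat livers and 0.639 in control livers. Many laboratory mouse strains carry defective Mx1 alleles.

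Among the oligoadenylate synthetases, which make the messenger that activates RNase L, Oas1a (ENSMUSG00000052776) was the lowered member. Its levels reached 5.47 scaled TPM in high-fat livers (median 0.896), against 12.3 in control livers (median 1.38), and differed by -0.46 ± 0.12 (limma adjusted p = 0.00377). Oasl1 had medians of 2.75 in high-fat livers and 3.57 in control livers, and Oasl2 of 1.18 in high-fat livers and 1.40 in control livers; neither passed. Oas2 and Oas3 were too low to be tested.

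The cytosolic RNA sensors did not move together past the test. Ifih1 (ENSMUSG00000026896; MDA5, a sensor of long double-stranded RNA) ranged between 6.27 and 15.5 scaled TPM in high-fat livers (median 10.3), against 6.79 to 19.2 in control livers (median 10.9), and differed by -0.23 ± 0.08 (limma adjusted p = 0.0329), but did not pass without the low-scale libraries (-0.12, adjusted p = 0.0978). Ddx58 (RIG-I, a sensor of short RNA ends) had medians of 8.07 in high-fat livers and 9.40 in control livers, and 15 of 62 high-fat livers were above the control median. Its difference of -0.14 ± 0.08 did not pass over all libraries, but passed without the low-scale libraries (-0.20, adjusted p = 0.0057). Dhx58 (LGP2, a regulator of both) and Zbp1 (a sensor of Z-form nucleic acid) did not pass, with medians of 3.55 and 2.05 in high-fat livers, against 4.10 and 1.97 in control livers.

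Gbp3 (ENSMUSG00000028268), one of the guanylate-binding GTPases that attack vacuoles of intracellular microbes, ranged between 0.411 and 4.57 scaled TPM in high-fat livers (median 1.37), against 0.648 to 6.75 in control livers (median 2.08). It differed by -0.34 ± 0.10 (limma adjusted p = 0.0119). Gbp7, its neighbour on chromosome 3, missed the threshold over all livers (-0.22 ± 0.08, adjusted p = 0.059) and passed without the low-scale libraries (-0.24, adjusted p = 0.0159). The immunity-related GTPases Irgm1 and Igtp did not pass, with medians of 27.6 and 15.0 in high-fat livers, against 24.9 and 17.4 in control livers.

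Xaf1 (ENSMUSG00000040483), a pro-apoptotic binding partner of XIAP, ranged between 0.309 and 11.2 scaled TPM in high-fat livers (median 2.92), against 1.08 to 15.8 in control livers (median 4.02), and fell by 0.41 ± 0.12 on the log2 scale (limma adjusted p = 0.0175), though not with a pseudocount of 0.1 (-0.55 ± 0.20, adjusted p = 0.0729). Parp14 (ENSMUSG00000034422), an ADP-ribosyltransferase, had medians of 5.27 in high-fat livers and 6.44 in control livers, and fell by 0.20 ± 0.06 (limma adjusted p = 0.0337).

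Ifi27 was, with Iigp1 and Bst2, among the most abundant of the 39 genes. It ranged between 22.2 and 253 scaled TPM in high-fat livers (median 77.1), against 11.6 to 526 in control livers (median 84.9), and did not pass. Ifi44 was much lower and reached 4.00 in high-fat livers (median 0.669), against 6.82 in control livers (median 1.02). It missed the threshold (-0.33 ± 0.12, limma adjusted p = 0.055). Ifi35, a partner of the transcription factor BATF, varied little between mice, with 7.42 to 23 in high-fat livers (median 12.9) and 8.74 to 18.8 in control livers (median 13).

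None of the IFIT family, whose proteins bind foreign RNA ends, passed in liver. Ifit1 had medians of 1.71 scaled TPM in high-fat livers and 1.62 in control livers, and Ifit3 of 2.93 in high-fat livers and 3.43 in control livers. Isg15, the ubiquitin-like modifier, and Usp18, the protease that removes it and damps the receptor, had medians of 2.33 and 2.42 in high-fat livers, against 2.28 and 2.41 in control livers. The immunoproteasome subunits Psmb8 and Psmb9 and the peptide transporter Tap1 did not pass either, with medians of 16.4, 11.4 and 8.57 in high-fat livers, against 18.5, 11.6 and 7.33 in control livers.

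**Figure D1:**
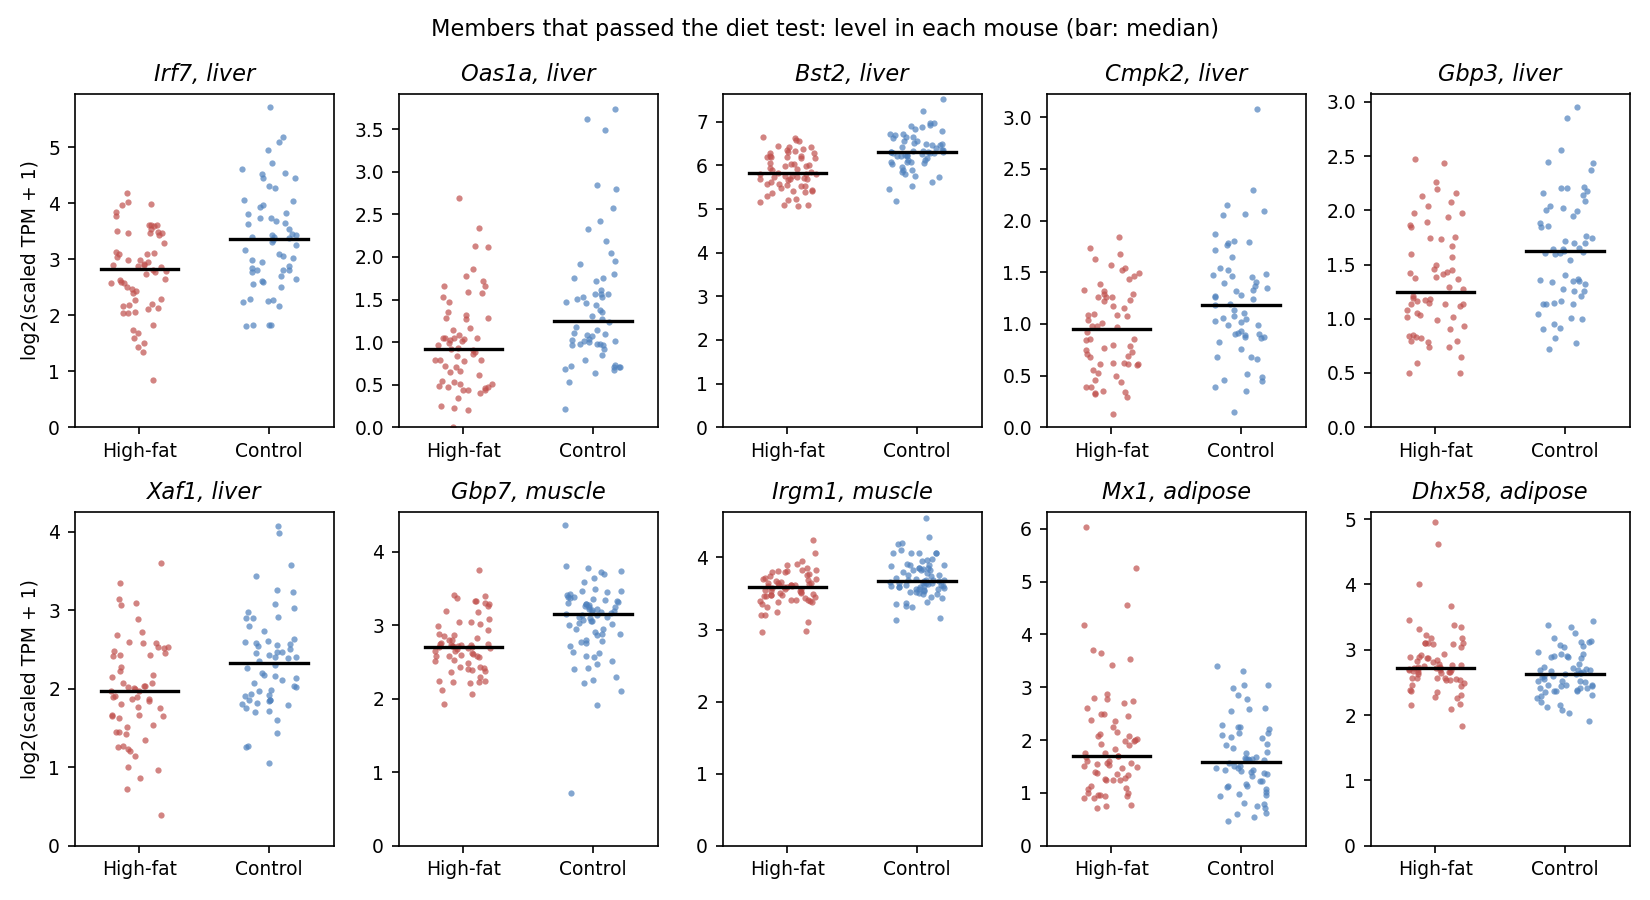
Level of 10 members that passed the diet test in a tissue, as log2(scaled TPM + 1), 1 point per mouse with high-fat mice left of control mice, libraries with low scale factors left out, bars at the medians. In every panel the diets overlap; in the liver panel of Bst2, 11 of 62 high-fat points lie above the control median.

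The liver calls changed with the scaling and with single libraries. With TPM as deposited, without rescaling, 0 of the 36 passed, and 11 higher and 49 lower genes were called among all 12345 tested. An unadjusted p under 0.05 was then found for 6 of the 36 and for 453 of the 12345. The liver of control mouse 45 held the highest value of 19 of the 39 genes, such as 51.5 scaled TPM for Irf7 and 526 for Ifi27. Without it 7 passed (Parp14 and Rtp4 were lost), and without the 8 unmatched mice 8 passed (Ifih1, Parp14 and Rtp4 were lost, Ddx58 and Gbp7 gained). With a pseudocount of 0.1, 7 passed (Ifih1, Rtp4 and Xaf1 were lost, Ifi44 gained). Without the low-value filter 6 passed, and without the libraries that carry a second number also 6, with Ifih1, Parp14 and Rtp4 lost in each. Without the 3 livers high in skeletal muscle markers 8 passed, and Rtp4 was lost (-0.31, adjusted p = 0.0528). Irf7, Oas1a, Bst2, Cmpk2 and Gbp3 passed in every alternative run on the liver fit other than TPM as deposited.

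Macrophage markers moved with these genes in liver. Of 15 listed, 14 were tested and 3 fell, against 5.37% of all tested genes lower (Ctss -0.29, Mpeg1 -0.34 and Timd4 -0.28, limma adjusted p = 0.0223, 0.0462 and 0.0193). All 14 were below 0. Their summed level ranged between 91.9 and 404 scaled TPM in high-fat livers (median 195), against 100.0 to 691 in control livers (median 225), and none of the 15 had a median of 0. Across livers their correlation with the mean of the interferon-stimulated genes lay between 0.306 and 0.528. Markers of other cells shifted too: of 6 hepatocyte markers 4 fell and 1 rose, with 5 below 0. Of 9 endothelial markers 1 fell and 0 rose, with 7 below 0. The correlation with the same mean lay between -0.0113 and 0.101 for hepatocyte markers and between -0.0231 and 0.302 for endothelial ones. In whole tissue, fewer cells of a type and less RNA per cell cannot be told apart. The part of macrophages, hepatocytes or endothelial cells in the result was not tested. Lymphocyte, plasmacytoid dendritic cell and neutrophil markers were mostly too low: 1 of 12, 0 of 4 and 0 of 8 were tested.

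The rest of the pathway in liver was described from lists of genes by role, to be read beside 5.37% of all tested genes lower and 4.56% higher. Of 15 tested receptors and signal carriers, 2 fell: Ifnar2, a chain of the type I receptor (-0.18 ± 0.04, limma adjusted p = 0.000733), and the kinase Jak2 (-0.14 ± 0.04, adjusted p = 0.0169). The others did not pass; Ifnar1 differed by 0.003 ± 0.05, Jak1 by 0.06 ± 0.04, Tyk2 by -0.02 ± 0.04 and Irf1 by -0.04 ± 0.09. Of 8 tested nucleic acid sensors and adaptors 0 passed, with Tlr3 at -0.04 ± 0.04 and Mavs at -0.06 ± 0.04. Of 9 negative regulators 1 fell, Rnf125, a ubiquitin ligase that targets RIG-I for degradation (-0.65 ± 0.10, adjusted p = 8.1e-07).

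A further list of 64 interferon-stimulated genes had 55 tested in liver, of which 9 fell, against 5.37% of all genes lower, and 0 rose, against 4.56% higher, with a median of -0.10 against -0.00574 over all tested genes. The smallest p-values were those of Ifitm2, a membrane protein that blocks virus entry (-0.49 ± 0.08, limma adjusted p = 8.59e-07), and Tapbp, which loads peptide onto MHC class I (-0.24 ± 0.06, adjusted p = 0.00115). The double-stranded RNA kinase gene Eif2ak2 (-0.14 ± 0.08), the chemokine gene Cxcl10 (-0.04 ± 0.11) and B2m (-0.08 ± 0.04) did not pass. Of 11 interferon ligand genes, 10 had a median of 0 in liver and 9 in muscle; the tables give no depth, so a listed 0 sets no upper limit.

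In muscle, Gbp7 and Irgm1 fell among 29 tested interferon-stimulated genes, 2 of 29, against 0.575% of all 13558 genes lower, and 0 rose, against 1.03% higher. Of the 29, 28 were below 0, with a median of -0.12 against -0.00485 over all tested genes. Gbp7 (ENSMUSG00000040253) ranged between 2.80 and 12.5 scaled TPM in high-fat muscles (median 5.54), against 0.649 to 19.6 in control muscles (median 7.87). Of 65 high-fat muscles 11 were above the control median, and the difference was -0.34 ± 0.07 (limma adjusted p = 0.00164). Irgm1 (ENSMUSG00000046879), which guards against recruitment of other GTPases to the cell's own membranes, had medians of 11 in high-fat muscles and 11.8 in control muscles. It fell by 0.16 ± 0.04 (limma adjusted p = 0.0254), a call lost without the low-scale libraries (-0.14, adjusted p = 0.0617) and with mouse 80 (-0.14, adjusted p = 0.129).

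Genes lower in high-fat livers did not pass in muscle, except that Gbp3 passed in one setting; Oas1a was too low to be tested there. Irf7 had medians of 2.08 scaled TPM in high-fat muscles and 2.43 in control muscles (-0.13 ± 0.09), Bst2 of 6.52 in high-fat muscles and 7.38 in control muscles (-0.13 ± 0.09), and Cmpk2 of 1.07 in high-fat muscles and 1.25 in control muscles (-0.08 ± 0.05). Gbp3 had -0.34 ± 0.11 (limma adjusted p = 0.0991), and passed without the unmatched mice (-0.40, adjusted p = 0.0297). With TPM as deposited 0 of 28 passed, and the median of all genes itself shifted to -0.16. An unadjusted p under 0.05 was then found for 14 of the 28 and for 2345 of all 13550 tested genes. The test of spread between mice called 0 of the 29, against 0.00738% of all genes higher and 0.0221% lower. Its unadjusted p was under 0.05 for 1 of the 29 and for 703 of all 13558 genes.

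The genes of antigen presentation were also below 0 in muscle without passing. Psmb8 had medians of 5.26 scaled TPM in high-fat muscles and 6.07 in control muscles (-0.28 ± 0.12, limma adjusted p = 0.271), Psmb9 of 2.54 in high-fat muscles and 3.19 in control muscles, and Tap1 of 2.00 in high-fat muscles and 2.36 in control muscles. Rtp4 had medians of 1.5 in high-fat muscles and 2.03 in control muscles (-0.23 ± 0.09, adjusted p = 0.203). Isg15, Ifi44, Oas1a, Oas2, Oas3, Oasl1, Mx1, Rsad2, Dhx58 and Zbp1 were too low in muscle to be tested, all with medians under 1 in both diets. Mx1 still reached 13.1 in 1 high-fat muscle and 7.50 in 1 control muscle, and Zbp1 5.39 in 1 high-fat muscle and 12.5 in 1 control muscle.

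The muscle of control mouse 34 held the highest value of 27 of the 39 genes, among them Irf7 at 22.7 and Ifit1 at 8.49 scaled TPM. Without it, Gbp7 (-0.33, limma adjusted p = 0.00262) and Irgm1 (-0.15, adjusted p = 0.0352) still passed, and both also passed without the 3 muscles high in hepatocyte markers. The muscle of control mouse 45 was listed at 0 for 25 of the 39, the next library outside the low-scale ones for 5. Markers of other cells moved with the members in muscle: across libraries, the correlation of 10 tested macrophage markers with the mean of the members lay between 0.398 and 0.705, with a median of 0.496. That of the 8 adipocyte markers had a median of 0.507 and lay between -0.609 and 0.600, and that of the 6 skeletal muscle markers lay between -0.558 and -0.401. None of these 3 lists had a gene that passed the diet test there. The diet difference was below 0 in 0 of the 10 tested macrophage markers (median 0.21), 5 of 8 adipocyte markers (median -0.01) and 6 of 6 skeletal muscle markers (median -0.13). Summed macrophage markers ranged between 54.4 and 820 scaled TPM in high-fat muscles (median 154), against 25.5 to 539 in control muscles (median 141.3). Summed adipocyte markers ranged between 372 and 2116 in high-fat muscles (median 739), against 325 to 3400 in control muscles (median 728). None of the 8 adipocyte markers had a median of 0. The part of these cells in the result was not tested.

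The pathway lists gave 1 call in muscle: Gbp5 fell by 0.28 ± 0.07 (limma adjusted p = 0.0299), 1 of 53 further interferon-stimulated genes tested, against 0.575% of all genes lower. None of 15 receptors and signal carriers, 8 sensors and adaptors or 10 negative regulators passed; Irf1 differed by -0.13 ± 0.08 and Socs1 by 0.12 ± 0.21.

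In adipose tissue, 2 of the 6 genes in the table rose, against 22.8% of 2228 tested genes higher and 22.7% lower: Mx1 and Dhx58. A share of 2 in 6 is not far from that background. Mx1 (ENSMUSG00000000386) ranged between 0.636 and 64.8 scaled TPM in high-fat adipose tissue (median 2.24), against 0.39 to 9.63 in control adipose tissue (median 2.02). The medians were close, and a few high-fat mice were far above every control mouse. The difference was 0.36 ± 0.15 (limma adjusted p = 0.0328). Dhx58 (ENSMUSG00000017830) ranged between 2.56 and 30.0 in high-fat adipose tissue (median 5.60), against 2.76 to 9.81 in control adipose tissue (median 5.17), and differed by 0.20 ± 0.08 (limma adjusted p = 0.0297).

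Neither adipose call held without the low-scale libraries (Mx1 0.31, adjusted p = 0.11; Dhx58 0.17, adjusted p = 0.0625) or with TPM as deposited, which put the median over all tested genes at 0.21. The adipose sample of 1 high-fat mouse held the highest value of 5 of the 6 genes, such as 25.2 scaled TPM for Cmpk2 and 38.9 for Rsad2. Without it Mx1 did not pass (0.33, adjusted p = 0.051). Medians of the remaining 4 genes were alike: Irf9 20.2 in high-fat and 21.1 in control, Ifi35 40.2 in high-fat and 40.4 in control, Rsad2 4.20 in high-fat and 4.35 in control, and Cmpk2 4.62 in high-fat and 4.61 in control adipose tissue.

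Cell markers shifted in adipose tissue with the diet. Of 4 tested macrophage markers 3 rose, against 22.8% of all tested genes higher (Adgre1 1.18, Cd68 1.56 and Cd5l 0.49, limma adjusted p = 2.44e-11, 3.64e-13 and 0.00575). The remaining 1 was below 0 and did not pass. Summed macrophage markers had medians of 279 scaled TPM in high-fat and 116.4 in control samples. All 4 tested adipocyte markers fell, against 22.7% of all tested genes lower, with summed medians of 4181 in high-fat and 6331 in control samples. Their part in the Mx1 and Dhx58 values was not tested. Among the pathway lists, Ptpn6, a phosphatase that damps cytokine signalling (0.78 ± 0.12), Tnfaip3, an inhibitor of NF-kB signalling (0.37 ± 0.06), Trim25, the ubiquitin ligase that activates RIG-I (0.27 ± 0.06), Stat3 (0.18 ± 0.04), Tbk1, the kinase upstream of Irf3 (0.16 ± 0.03), and Daxx (0.14 ± 0.06) rose. These were 2 of 2 negative regulators, 2 of 2 sensors and adaptors, 1 of 4 receptors and signal carriers and 1 of 4 further interferon-stimulated genes, in a tissue where 22.8% of all tested genes were higher; 1 of 4 is about that share.

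**Figure D2:**
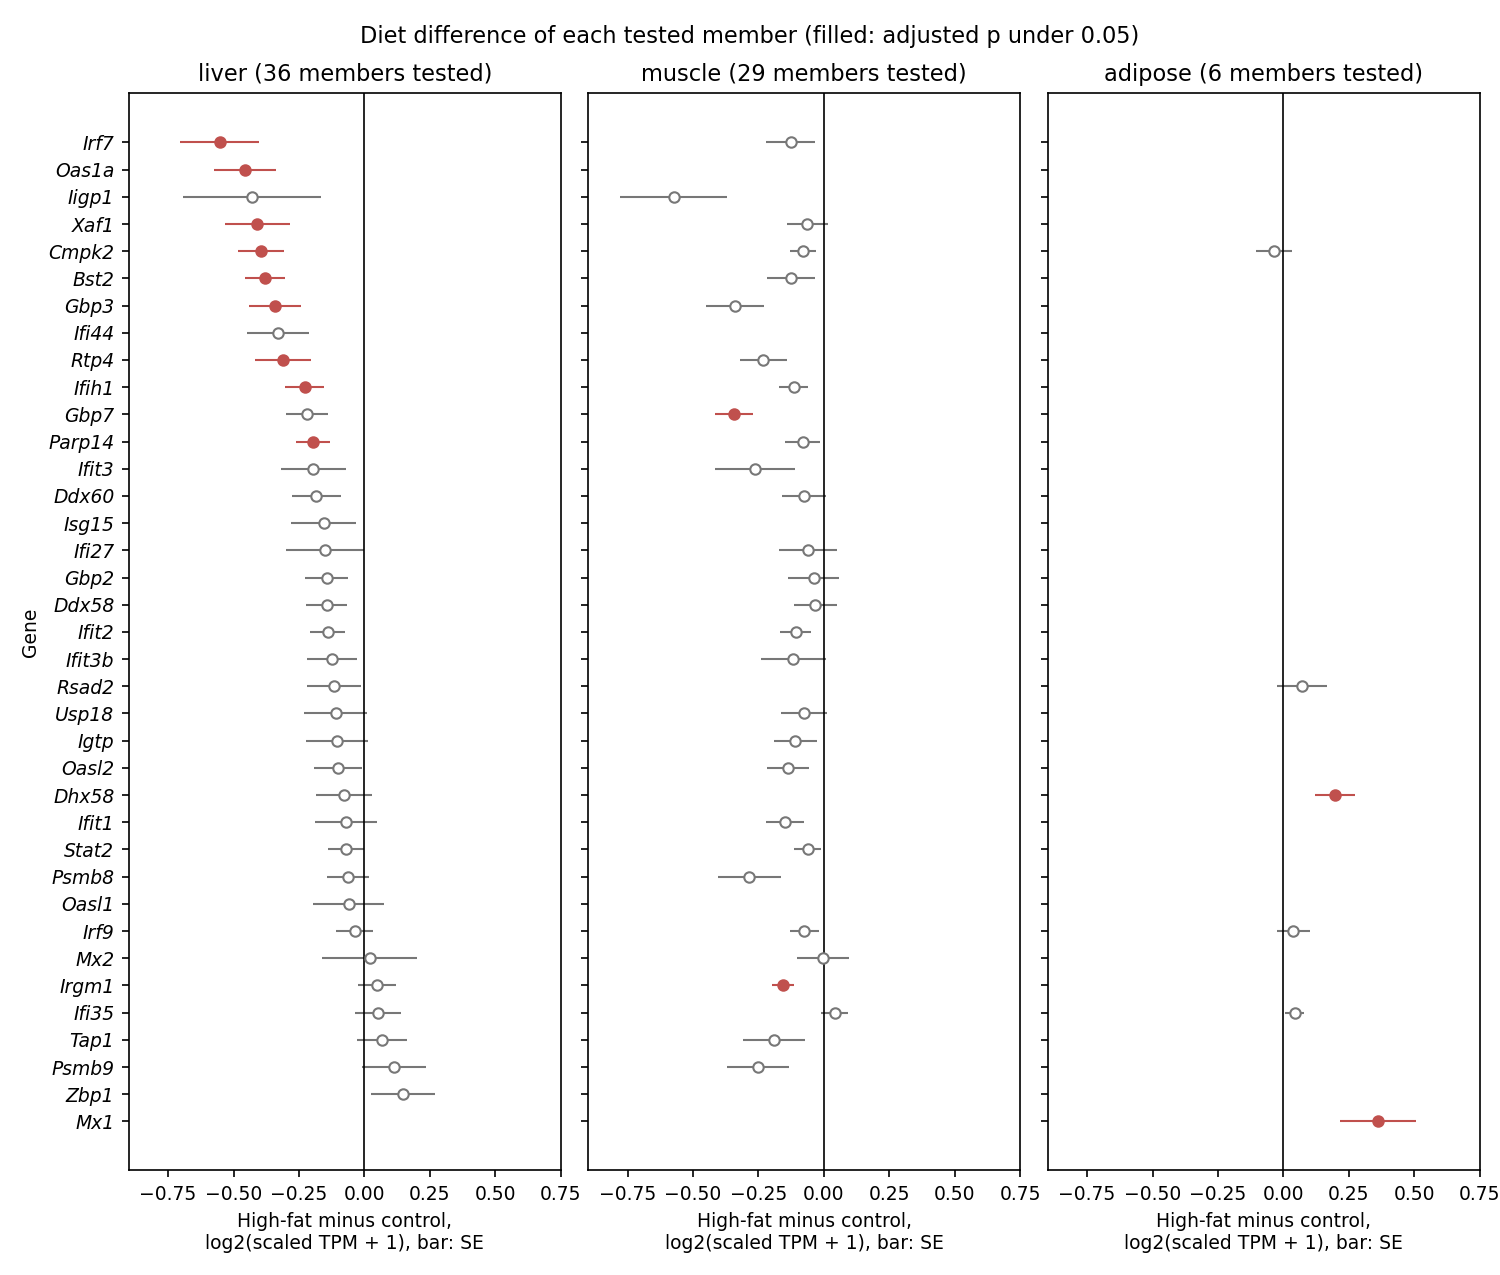
High-fat minus control difference of each tested member in liver, muscle and adipose tissue on the log2(scaled TPM + 1) scale, with bars of 1 SE; filled points had an adjusted p under 0.05. In liver 30 of 36 points and in muscle 28 of 29 lie below 0, while the filled adipose points, Mx1 and Dhx58, lie above it.

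Whether the diet acted differently in 2 tissues was tested as an interaction. The main fit treated the 2 libraries of a mouse as independent, and a fit with the mouse as a block was an alternative. Between liver and muscle 0 of 29 genes passed in limma, against 1.93% of 11005 genes lower and 1.33% higher. An unadjusted p under 0.05 was found for 6 of the 29 and for 1684 of the 11005. Cmpk2 came closest (-0.31 ± 0.10, adjusted p = 0.0602) and passed when libraries of a mouse were treated as a block (-0.32, adjusted p = 0.0269) and without the muscle of mouse 34 (-0.33, adjusted p = 0.038). Bst2 missed the threshold over all libraries (-0.25 ± 0.12, adjusted p = 0.281) and passed without the low-scale libraries (-0.42, adjusted p = 0.0235). Irf7 had an interaction of -0.43 ± 0.18 (adjusted p = 0.197), so a difference of its response between liver and muscle was not shown.

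Between liver and adipose tissue 1 of 5 genes passed, against 14.5% of 1786 genes lower and 12.0% higher. This was Cmpk2 (-0.36 ± 0.11, limma adjusted p = 0.00865), which fell in liver and had -0.04 ± 0.07 in adipose tissue. The call was lost without the low-scale libraries (-0.26, adjusted p = 0.0716), where Dhx58 passed (-0.29, adjusted p = 0.0342). Between muscle and adipose tissue 0 of 3 passed, against 12.0% of 1931 genes lower and 12.1% higher. An unadjusted p under 0.05 was found for 0 of the 3 and for 666 of the 1931.

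Within a tissue the interferon-stimulated genes varied together between mice of the same diet. The median correlation over the 630 pairs of 36 genes in 74 high-fat and 74 control livers was 0.385, against 0.046 over pairs of all tested genes. Over 406 pairs of 29 genes in muscle it was 0.358 against 0.002, and over 15 pairs of 6 genes in adipose tissue 0.434 against -0.004. Without the low-scale libraries these medians were 0.473, 0.398 and 0.511. All values in a sample share its library and scale factor, so they are given without a test.

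Genes differed in how closely they followed the rest. In liver, Ifit1 (r = 0.878 with the mean of the others), Usp18 (0.839) and Irf7 (0.818) led; in muscle these were Psmb8 (0.831), Gbp2 (0.82) and Parp14 (0.815). The closest pair in liver was Usp18 and Ifit1 (0.805) and in muscle Gbp2 and Psmb8 (0.822). Psmb8 in liver had 0.540, and Usp18 in muscle 0.580. Genes within 1 Mb of each other had a median of 0.519 over 15 pairs in liver, against 0.38 over the other 615, and of 0.525 over 12 pairs in muscle, against 0.356 over the other 394. Most of these near pairs were among the Ifit genes, among the Gbp genes, or among Psmb8, Psmb9 and Tap1. Oasl1 with Oasl2 (0.205) and Ifi35 with Dhx58 (0.36) in liver were below the median of the other pairs. The part of position was not tested. Rsad2 and Cmpk2, neighbours on chromosome 12, reached 0.754 in liver and 0.613 in adipose tissue.

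Genes outside the list that were among the closest to the mean of the members in liver were Apol9a (r = 0.826), Rnf213 (0.697), Gm12250 (0.682), Gbp6 (0.674), Zc3hav1 (0.661), Oas1g (0.657) and Trim30a (0.653), over 74 high-fat and 74 control livers. In muscle they were Ifi47 (0.805), H2-Q4 (0.796), H2-K1 (0.77), Samd9l (0.763), Cd274 (0.762), B2m (0.757), Nlrc5 (0.748) and H2-Aa (0.748), over 74 high-fat and 74 control muscles.

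A mouse's level in one tissue was then set against its level in another, after subtracting diet means. Between liver and muscle of 74 high-fat and 74 control mice, 11 of 28 genes correlated positively, against 9.76% of 11005 genes (adjusted over all 11005), and 0 negatively; the median r was 0.217 against 0.0495 over all genes. Iigp1, whose mice fall into separate clusters, is left out of these counts and described below. The 11 were Irf7, Irf9, Ifit1, Ifit3, Ifi27, Mx2, Bst2, Gbp2, Gbp3, Tap1 and Xaf1. Ifit3 had r = 0.45 (rho = 0.427, adjusted p = 3.56e-07) and Gbp3 r = 0.416 (rho = 0.539, adjusted p = 4.68e-06), each with a permutation p of 1e-05, the smallest that 100000 permutations can give. Irf7 had r = 0.317 and rho = 0.403 (permutation p = 0.00012 for r, adjusted p = 0.00166), with r = 0.476 in high-fat mice and 0.186 in control mice; the difference between diets was not tested. Without the 2 mice farthest from the muscle median, r was 0.416 for Ifit3, 0.42 for Gbp3 and 0.379 for Irf7.

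Of these 28 genes, Mx2 had the highest r between tissues over all mice, and one of the lowest with its fellow genes in liver. That r between liver and muscle was 0.553 (rho = 0.581, permutation p = 1e-05, adjusted p = 1.98e-11), with 0.533 in high-fat mice, 0.582 in control mice, 0.565 without the 2 mice farthest from the muscle median and 0.729 without the low-scale libraries. Its r with the mean of the other members was 0.358 in liver and 0.347 in muscle. Usp18 showed the opposite order: 0.839 with the other members in liver, but 0.106 between liver and muscle (rho = 0.232, permutation p = 0.00491 for rho). That r was 0.173 without the 2 mice farthest from the muscle median and 0.0748 without the low-scale libraries. Unmatched mouse 45 had the highest liver value of Usp18 outside the low-scale libraries, 18.8 scaled TPM, and 0 in muscle. Psmb8, the leading gene in muscle, had 0.0651 between the tissues, and 0.173 without the 2 farthest mice.

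The number of the 28 genes that passed depended on the measure. The number called positive among all 11005 genes, given in brackets, moved with the measure too. With Spearman's rho 17 passed (1422), and without the unmatched mice 15 (1369). In high-fat mice alone 7 passed (640), in control mice alone 4 (697) and with TPM as deposited 2 (391). Of the 28, 27 had r above 0 over all mice, 27 in high-fat mice, 24 in control mice and 21 with mouse 80 included. The mean over the 29 genes correlated with r = 0.295 and rho = 0.419 between liver and muscle, as a description of these mice. Between liver and adipose tissue of 74 high-fat and 73 control mice 2 of 5 passed, against 5.82% of 1786 genes: Irf9 (r = 0.322, rho = 0.404, permutation p = 6e-05, adjusted p = 0.00266; 0.334 without the 2 farthest mice) and Ifi35 (r = 0.311, rho = 0.403, permutation p = 0.00045, adjusted p = 0.00404; 0.29 without them). Between muscle and adipose tissue Irf9 passed (r = 0.253, rho = 0.29, permutation p = 0.00214, adjusted p = 0.0236; 0.297 without the 2 farthest mice), 1 of 3, against 11.7% of 1931 genes.

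**Figure D3:**
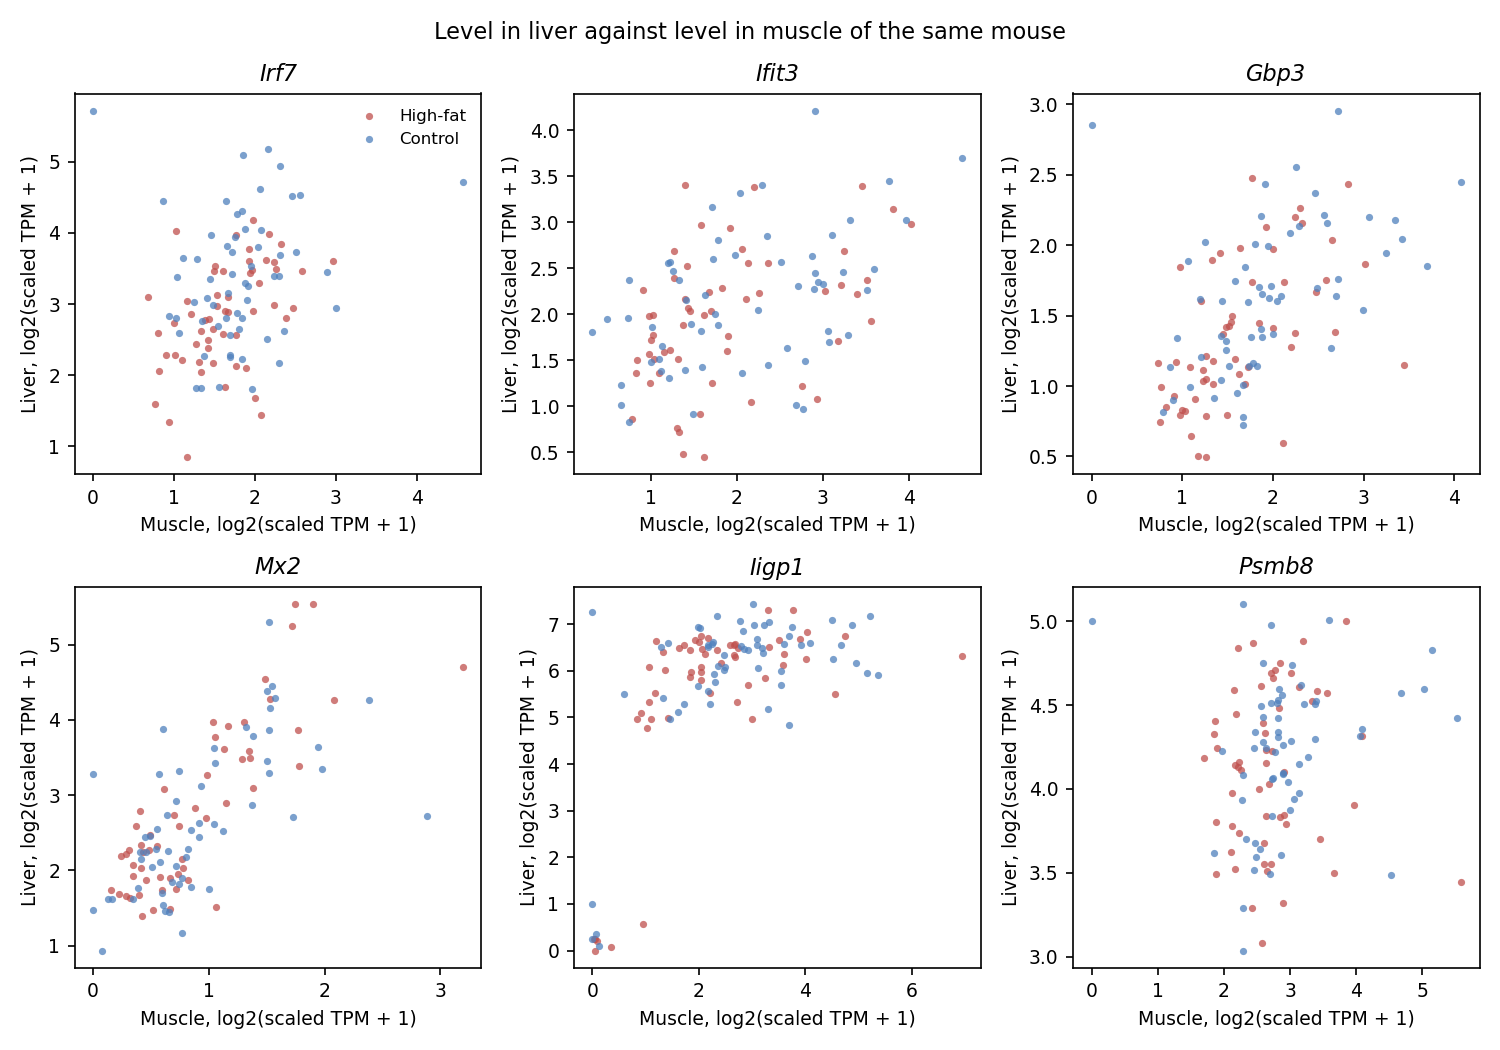
Level in liver (vertical) against level in muscle (horizontal) of the same mouse for 6 members, each as log2(scaled TPM + 1), high-fat and control mice in separate colours, 56 high-fat and 59 control mice without low scale factors in either tissue. Mx2 shows a close relation, Psmb8 none that passed, and Iigp1 has a separate cluster of 10 mice near 0 in both tissues.

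Iigp1, an immunity-related GTPase that attacks parasite vacuoles, formed 2 separate clusters of mice, so no pooled correlation is given for it. Among the 56 high-fat and 59 control mice with both tissues outside the low-scale libraries, 10 (6 high-fat and 4 control) had at most 0.986 scaled TPM in liver, and the other 50 high-fat and 55 control mice had at least 26.4. The same 10 mice had at most 0.941 in muscle, and 4 of the other mice were also under 1 there. Among the other mice, r was 0.286 and rho 0.288. The clusters held both diets. Medians were 70.1 in high-fat livers and 87.3 in control livers, with highest values of 158 in high-fat livers and 171 in control livers, and Iigp1 did not pass the diet test in liver (-0.43 ± 0.26, limma adjusted p = 0.361) or muscle (-0.57 ± 0.20, adjusted p = 0.149).

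**Figure D4:**
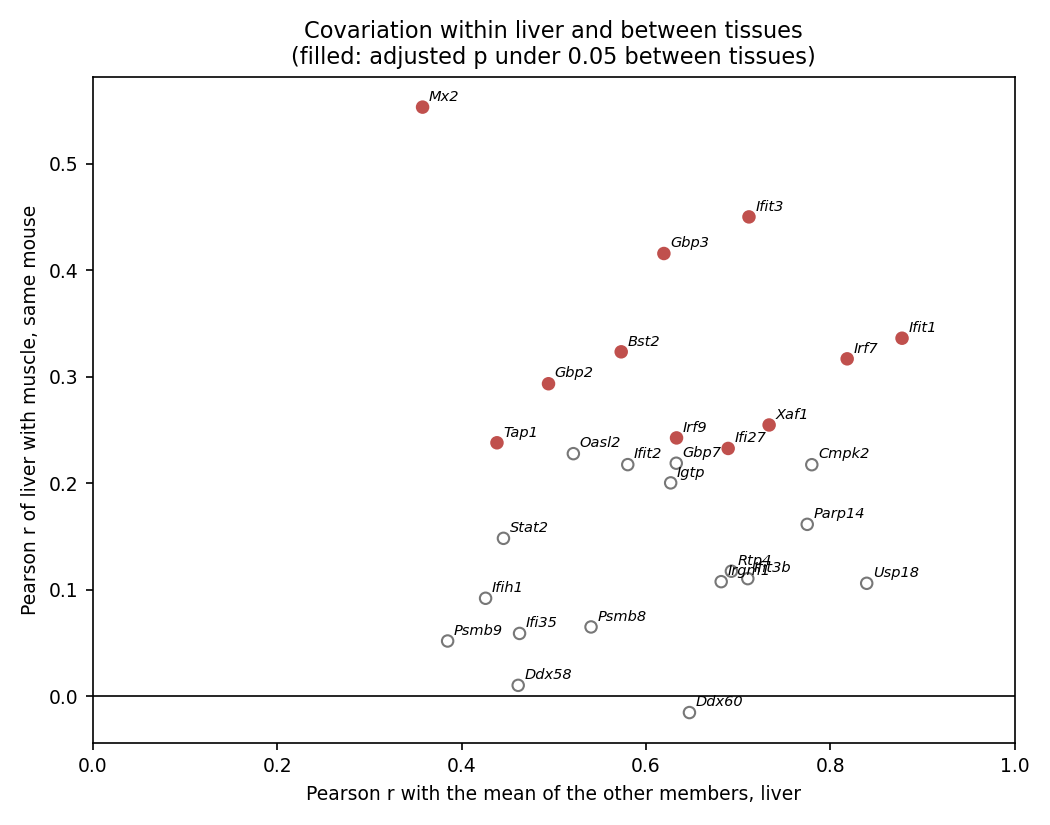
For 28 members tested in liver and muscle (Iigp1, whose mice form separate clusters, is not drawn), the correlation with the mean of the other members in liver (horizontal, Pearson r over 74 high-fat and 74 control livers) against the correlation of liver with muscle in the same mouse (vertical, Pearson r over the same mice); filled points had an adjusted p under 0.05 between tissues. Mx2 lies high on the left, and Usp18 lies low on the right.

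The order of levels differed between tissues, although the tables were made separately and no test was made between them. Over the 56 high-fat and 59 control mice the median was higher in liver for 31 of the 39 genes and in muscle for 8 (Gbp2, Gbp7, Ifit3b, Ifit2, Xaf1, Gbp3, Ifi35 and Cmpk2). The median of the differences within a mouse, liver minus muscle on the log2(scaled TPM + 1) scale, was 3.60 for Iigp1 and 3.15 for Bst2, which was higher in liver in every one of these mice. At the other end it was -1.11 for Gbp2, higher in liver in 3 mice, and -0.89 for Gbp7, higher in liver in 2. Ifi27, a small mitochondrial and nuclear-envelope protein, had the highest medians in both tissues, 82.7 in liver and 52.9 in muscle.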

How the data were processed

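Total RNA from liver, muscle and abdominal adipose tissue was made into stranded libraries and sequenced on MiSeq, per the labels' protocols. FastQC, Trim Galore 0.4.4 and Bowtie 1.2.2 were used, per the submitters' processing notes; which quantifier and which genome build and annotation were used is not given in these sources. Values were deposited by the authors as TPM for each gene and library; those of liver and muscle sum to 1000000, and read depth is unknown, so no counting intervals are given. The adipose table holds part of the genes, and its last, incomplete line was left out.

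Symbols came from GENCODE M21 (99.1% of identifiers in liver and muscle matched, 99.9% in adipose). Libraries were scaled against the gene-wise median library with a trimmed mean of log ratios that weighs genes equally, using nuclear coding genes except Lars2, with 0.3 of ratios and 0.05 of levels trimmed at each end. A gene was tested where scaled TPM was at least 1 in 51 libraries, 0.7 of the smaller diet group. Diets were compared with limma 3.58.1 (R 4.3.3, trend and robust) on log2(scaled TPM + 1), two-sided, with Benjamini-Hochberg adjustment over all genes tested and a threshold of 0.05. The fit and the correlation test were tested on simulated data. Same-mouse correlations used within-diet deviations (SciPy 1.17.1), with 100000 permutations of mice within diets for each member; 29, 5 and 3 members were tested in the 3 pairs of tissues. The mouse number pairs tissues of an animal: liver and muscle matched by number in all but 8 of 148 mice. The median correlation over the genes used was 0.816 for the own number and -0.0095 for others. Liver and adipose tissue matched in 88 of 147 mice (median 0.289 for the own number, -0.00197 for others). Muscle and adipose tissue matched in 82 of 147 (0.309 for the own number, -0.00222 for others).

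Alternatives were TPM as deposited, a pseudocount of 0.1, no low-value filter, other shrinkage, a replicate block, and leaving out or adding libraries. The members, lists and tests were chosen with earlier results of these data known. All members were described; of the other lists, a set list of symbols and up to 2 per list and tissue with the smallest p were named, with further calls in adipose tissue, and genes among the 8 of closest pattern in a tissue. Of these, 1 gene is not reported here.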

Additional observations from a re-analysis of the deposited data

Results flagged for a closer look

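The diet difference of Cmpk2 differed between liver and adipose tissue by an interaction test (-0.357 on the log2 scale, SE 0.112, limma adjusted p = 0.00865), liver minus adipose tissue. Its high-fat minus control difference was -0.39 in liver and -0.04 in adipose tissue. The interaction call was lost without the low-scale libraries and with TPM as deposited. It was 1 of 5 tested members, against 14.5% of 1786 genes lower.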

How the results depend on the processing

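With TPM as deposited, 0 members passed in liver, muscle or adipose tissue and 0 between liver and adipose tissue. Same-mouse correlations then passed for 3 of 29 members between liver and muscle (counts here include Iigp1), against 391 of 11005 genes called positive. In the adipose pairs they passed for 0 members, against 7 of 1786 genes with liver and 7 of 1931 with muscle. Without low scale factors, 1 member passed in muscle, 0 in adipose tissue and 1 between liver and muscle. Between liver and adipose tissue Dhx58 then passed in place of Cmpk2. In muscle 1 passed with no low-value filter and 1 with mouse 80. With the replicate block, treating libraries of a mouse as one, 1 passed between liver and muscle (Cmpk2); the block changed no other call. In adipose tissue 1 passed without the high-fat mouse that was highest for 5 of 6 genes, and between liver and muscle 1 passed without the muscle of mouse 34 (Cmpk2). These alternatives, and those without the liver of mouse 45 or without libraries high in markers of the other tissue, were chosen after seeing the data. Correlations passed for 5 members between liver and muscle in control mice only, for 0 between liver and adipose tissue in high-fat mice only, and for 0 between muscle and adipose tissue in high-fat mice, in control mice, or with mouse 80. The cause was not tested.

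The sign changed for log2 differences of Cmpk2 in adipose tissue (0.144 with TPM as deposited), of Mx2 in liver (-0.049 with pseudocount 0.1, -0.0112 with mouse 80), and of Ifit1 (0.0116) and Irf9 (0.0109) in liver without the libraries that carry a second number. Among the liver and muscle correlations of genes that passed and of Usp18, Ifit3b, Psmb8 and Psmb9, it changed for Psmb8 (-0.0067 with mouse 80, -0.0304 in high-fat mice) and Psmb9 (-0.0152 with mouse 80); over all 29 members, 28 values were above 0 without mouse 80, 22 with it and 25 in control mice. It changed for liver and adipose correlations of Irf9 (-0.031) and Ifi35 (-0.0527) with TPM as deposited. Between muscle and adipose tissue it changed for Ifi35 (-0.101 in control mice) and Cmpk2 (-0.0673 with TPM as deposited, -0.0371 with pseudocount 0.1, -0.174 in control mice, -0.00213 without the 2 mice farthest from the median). Of the single-gene values, 555 kept direction and side of the threshold, 75 no longer passed and 15 newly passed.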
